A study of Mus musculus with 10 samples.

Results

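The genes of the standard proteasome, the protease that takes apart ubiquitin-tagged proteins, were followed in activated cytotoxic T lymphocytes. Members were the protein-coding genes named Psma, Psmb, Psmc, Psmd, Psme or Psmf plus a number, without the interferon-inducible catalytic subunits Psmb8, Psmb9 and Psmb10, and with counts in all 10 libraries. Of 35275 genes in the table, 43 matched the name pattern and 41 had counts in every library. Psma8, a subunit of testis, had 5 counts in all and Psmb11, a subunit of thymic epithelium, had 1 count, and both were left out. The 41 comprised 7 Psma, 7 Psmb, 7 Psmc, 14 Psmd and 5 Psme genes and Psmf1, and all 41 passed the filter on low counts. The name pattern also takes in genes that are not subunits. Psmc3ip is a recombination factor that was named for binding an ATPase of the complex, Psmd5, Psmd9 and Psmd10 are assembly chaperones, Psme genes encode activators and Psmf1 an inhibitor, which leaves 31 genes of the 26S particle itself.

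Polyadenylated mouse RNA was measured in 2/20 cells, a wild-type line of cytotoxic T lymphocytes (CTLs) specific for the AH1 peptide, with 2 libraries in each of 5 groups. The groups were CTLs after 24 h or 4 h of co-culture with 4T1 mammary carcinoma cells, CTLs after 24 h or 4 h of activation by AH1 peptide at 1 µg/mL, and resting CTLs. The line behind every group was restimulated each week with irradiated spleen cells of BALB/c mice, the same dose of AH1 peptide, and IL-2 (10 units/mL), and CTLs of every group were collected with magnetic beads against CD45. The sources used here do not say whether spleen cells were present during activation. Nor do they say whether replicates were separate cultures, so p-values measure the spread between libraries, which may be technical.

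The core of the proteasome is a barrel of stacked rings, in which the outer alpha rings form the gate and the inner beta rings carry the active sites. A regulatory particle on the barrel binds ubiquitin chains, removes them and threads the protein inward with a ring of ATPases, while activators such as the Psme1-Psme2 ring open the gate without ubiquitin. In T cells the inducible catalytic subunits replace the standard ones to a large extent, and the complex supplies peptides for MHC class I and degrades regulators of activation and division.

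Levels are CPM, counts scaled to a common library size by TMM, given for both libraries of a group. Where libraries are ranked by CPM, the ranking is that of this scaling. Changes are log2 fold changes ± SE, and "rose" or "fell" means an adjusted p under 0.05 in edgeR (quasi-likelihood fit, Benjamini-Hochberg adjustment across the 14729 genes tested). Libraries held 14104658 to 22910633 counts, and the members took 0.371% and 0.380% of the counts at rest and up to 0.891% in the activated libraries. The lowest member count in a library was 74 (Psmc3ip) and the highest 11631 (Psme2). At 4 h of peptide the TMM factors were 0.711 and 0.758, with 9.14% and 7.48% of counts on Ifng.

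The co-culture libraries also held epithelial RNA. The 10 epithelial markers summed to 3450–3609 CPM at 24 h and 4156–4188 CPM at 4 h of co-culture, 0.320–6.50 CPM at 24 h and 2.36–3.07 CPM at 4 h of peptide, and 3.25–6.04 CPM at rest. The 16 T cell identity genes, which encode the T cell receptor complex and its signaling partners, summed to 1293–1360 CPM at 24 h and 3112–3256 CPM at 4 h of co-culture, 4295–4635 CPM at 24 h and 14807–15266 CPM at 4 h of peptide, and 8755–9112 CPM at rest. Of these 16 genes, Cd6 was at 0 in co-culture and at rest, and all 16 had counts with peptide. The 9 B cell markers found summed to 0.206–0.325 CPM and 0.553–1.09 CPM at 24 h and 4 h of co-culture, 140.0–288 CPM and 284–355 CPM at 24 h and 4 h of peptide, and 1.68–1.85 CPM at rest. The 10 myeloid markers summed to 40.1–41.3 CPM at 24 h and 21.3–22.5 CPM at 4 h of co-culture, 40.2–63.6 CPM at 24 h and 141–190 CPM at 4 h of peptide, and 45.1–49.3 CPM at rest. In bulk RNA, fewer cells of a type and less RNA per cell cannot be told apart, and the part of these other cells in the proteasome values below was not tested. The plot of summed levels sets the proteasome genes beside the marker lists.

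**Figure D1:**
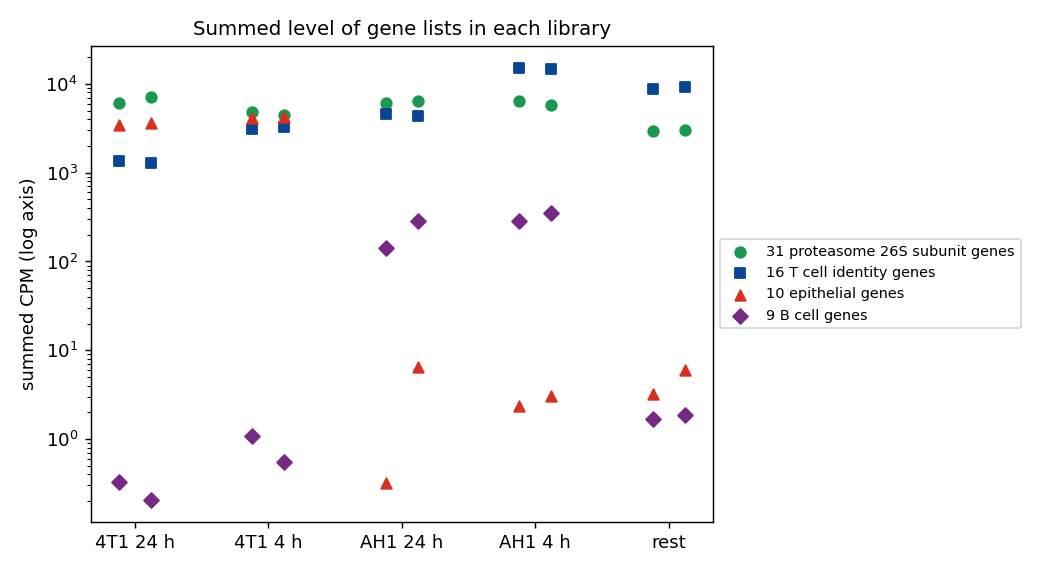
Summed CPM (log axis) of 31 genes of the 26S proteasome, 16 T cell identity genes, 10 epithelial genes and 9 B cell genes in each library, 1 point per library and 2 per group. The proteasome sum lies at 2950–3029 CPM at rest and at 4453 CPM or more in the 8 activated libraries, while epithelial genes are high in co-culture and B cell genes with peptide.

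Promoters are shown for the genes with the strongest change at 24 h of peptide among those with an entry, 1 for each of Psma, Psmb, Psmc and Psmd (Psma4, Psmb3, Psmc3ip and Psmd14). Psmc5 and Psme3, the ATPase and the activator with the largest change at that time, were added after their values were seen. The sequences are RefSeq's, build GRCm38.p6, from 250 bases before to 50 after the start of the gene, and 35 of the 41 genes matched an entry (all but Psmb1, Psmb2, Psmb7, Psmc3, Psmd3 and Psmd7). Capitals mark words of known promoter elements on either strand, namely GGGCGG of the GC box, CCAAT of the factor NF-Y, CCGGAAG of ETS factors and TGACNNNGC of the antioxidant response element.
Psma4, chr9:54950609-54950908, plus strand: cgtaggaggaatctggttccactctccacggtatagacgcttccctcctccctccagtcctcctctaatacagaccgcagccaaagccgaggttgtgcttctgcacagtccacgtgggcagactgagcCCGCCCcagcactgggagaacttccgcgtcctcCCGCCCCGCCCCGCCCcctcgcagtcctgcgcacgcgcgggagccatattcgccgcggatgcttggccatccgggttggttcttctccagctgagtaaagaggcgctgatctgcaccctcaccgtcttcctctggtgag
Psmb3, chr11:97703184-97703483, plus strand: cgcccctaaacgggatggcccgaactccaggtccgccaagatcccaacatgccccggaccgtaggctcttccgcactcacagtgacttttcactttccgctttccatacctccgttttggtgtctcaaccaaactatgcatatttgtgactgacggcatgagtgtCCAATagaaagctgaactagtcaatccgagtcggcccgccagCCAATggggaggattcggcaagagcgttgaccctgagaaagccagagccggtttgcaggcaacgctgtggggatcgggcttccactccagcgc
Psmc3ip, chr11:101095386-101095685, minus strand: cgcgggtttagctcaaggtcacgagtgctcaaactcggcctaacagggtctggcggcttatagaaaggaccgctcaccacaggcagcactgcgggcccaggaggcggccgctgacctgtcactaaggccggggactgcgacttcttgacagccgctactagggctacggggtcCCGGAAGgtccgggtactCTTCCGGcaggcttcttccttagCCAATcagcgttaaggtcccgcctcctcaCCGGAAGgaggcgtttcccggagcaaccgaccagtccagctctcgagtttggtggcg
Psmc5, chr11:106255935-106256234, plus strand: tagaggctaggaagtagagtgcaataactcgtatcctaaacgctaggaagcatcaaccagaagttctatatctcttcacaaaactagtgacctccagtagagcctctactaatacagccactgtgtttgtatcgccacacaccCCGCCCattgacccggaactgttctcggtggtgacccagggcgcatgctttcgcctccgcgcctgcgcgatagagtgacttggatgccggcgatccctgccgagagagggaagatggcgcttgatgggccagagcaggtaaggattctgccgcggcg
Psmd14, chr2:61711444-61711743, plus strand: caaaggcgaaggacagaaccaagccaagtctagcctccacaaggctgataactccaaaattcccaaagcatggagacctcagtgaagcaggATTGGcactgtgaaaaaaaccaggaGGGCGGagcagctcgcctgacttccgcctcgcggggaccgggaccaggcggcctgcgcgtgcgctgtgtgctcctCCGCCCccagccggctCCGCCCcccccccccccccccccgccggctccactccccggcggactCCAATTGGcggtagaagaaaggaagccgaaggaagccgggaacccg
Psme3, chr11:101315963-101316262, plus strand: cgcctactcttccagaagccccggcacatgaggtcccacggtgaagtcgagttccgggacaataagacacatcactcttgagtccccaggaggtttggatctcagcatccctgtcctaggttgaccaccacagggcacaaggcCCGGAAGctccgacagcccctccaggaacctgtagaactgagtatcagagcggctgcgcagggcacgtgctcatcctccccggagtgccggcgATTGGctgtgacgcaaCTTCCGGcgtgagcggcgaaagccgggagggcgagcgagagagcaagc

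The printed promoters differ in these words. Psma4 has 4 GC box words between 122 and 79 bases before the start, of which the last 3 follow each other and share end bases. Psmb3 has 2 CCAAT words 85 and 43 bases before the start, and Psmc5 has a single GC box word 107 bases before it. Psmc3ip has 3 ETS words, the nearest 7 bases before the start, and 1 CCAAT word. Psmd14 has 3 GC box words and 3 CCAAT words, the last 2 of which overlap on opposite strands just after the start. Psme3 has 2 ETS words and 1 CCAAT word.

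Over all promoters, CCGGAAG was present in 9 of 25 promoters of 26S genes (36%), in 17.6% of 10203 promoters of tested genes and in 8.86% of the 32851 promoters in the table. CCAAT was in 40% of the 26S promoters, 38.5% of tested genes and 37.4% of all, and GGGCGG in 60%, 62.8% and 35.7%. TGACNNNGC was in 4 of the 25 (16%), 14.8% of tested genes and 12.4% of all. The GC box, CCAAT and antioxidant words were thus about as frequent as among tested genes. The higher share of CCGGAAG rests on 25 promoters and was not tested. Entries were also picked unlike: for members the one nearest the deposited start, and for tested genes the first listed. A word is a description of the sequence and not a binding site.

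Most proteasome genes were higher in the activated groups than at rest, except that at 4 h of peptide the direction turned with one scaling. At 24 h of co-culture 37 of 41 rose, where 36.0% of all genes tested rose, and the median change was 1.06. At 4 h of co-culture 29 of 41 rose and 1 fell (34.2% and 26.7% of all genes), with a median of 0.61. With peptide 37 of 41 rose and 1 fell at 24 h (29.2% and 26.1% of all genes), with a median of 1.10. At 4 h of peptide 37 of 41 rose (28.8% of all genes), with a median of 1.04, but with libraries set equal on the T cell identity genes 5 rose and 15 fell. Of the calls over all genes, 12.8% were rises there with that scaling.

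That alternative scaling assumes that the T cell identity genes did not change. On the TMM scaling, 14 of the 16 genes fell at 24 h of co-culture, and 1 rose and 11 fell at 4 h of co-culture. With peptide 1 rose and 9 fell at 24 h, and 11 rose and 3 fell at 4 h. These calls take the TMM scaling as given, so they cannot decide which scaling holds, and the co-culture libraries also held epithelial RNA. The T cell identity scaling moved the median of all genes to 2.54 and 0.99 at 24 h and 4 h of co-culture and to 0.64 and -1.37 at 24 h and 4 h of peptide, against -0.04 to 0.05 as reported. Library totals alone moved that median to -0.54 at 4 h of peptide. Relative to the median of all genes, the median proteasome change was 1.01 to 1.02 at 24 h of co-culture, 0.56 at 4 h of co-culture, 1.09 at 24 h of peptide and 1.07 to 1.10 at 4 h of peptide under the 4 scalings. A library scaling moves all genes of a comparison by about the same amount. The likeness of these values under the scalings was thus fixed in advance and does not tell which scaling holds.

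Of the 41 genes, 27 rose in all 4 comparisons with rest, 9 in 3, 2 in 2 and 1 in 1. The other 2 rose in no comparison and were Psmb1 and Psme2b. Among the 31 genes of the 26S particle, 29 rose at 24 h of co-culture, 24 at 4 h of co-culture and 30 at each time of peptide, with medians of 1.30, 0.68, 1.18 and 1.16, the last of which rests on the scaling in the way given above. In the same order 36.0%, 34.2%, 29.2% and 28.8% of all genes tested rose. The 4 comparisons share the resting libraries. How many of all genes tested rose in all 4 was not counted, so the tally over comparisons has no share beside it. The plot of changes against rest shows every gene with its error.

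**Figure D2:**
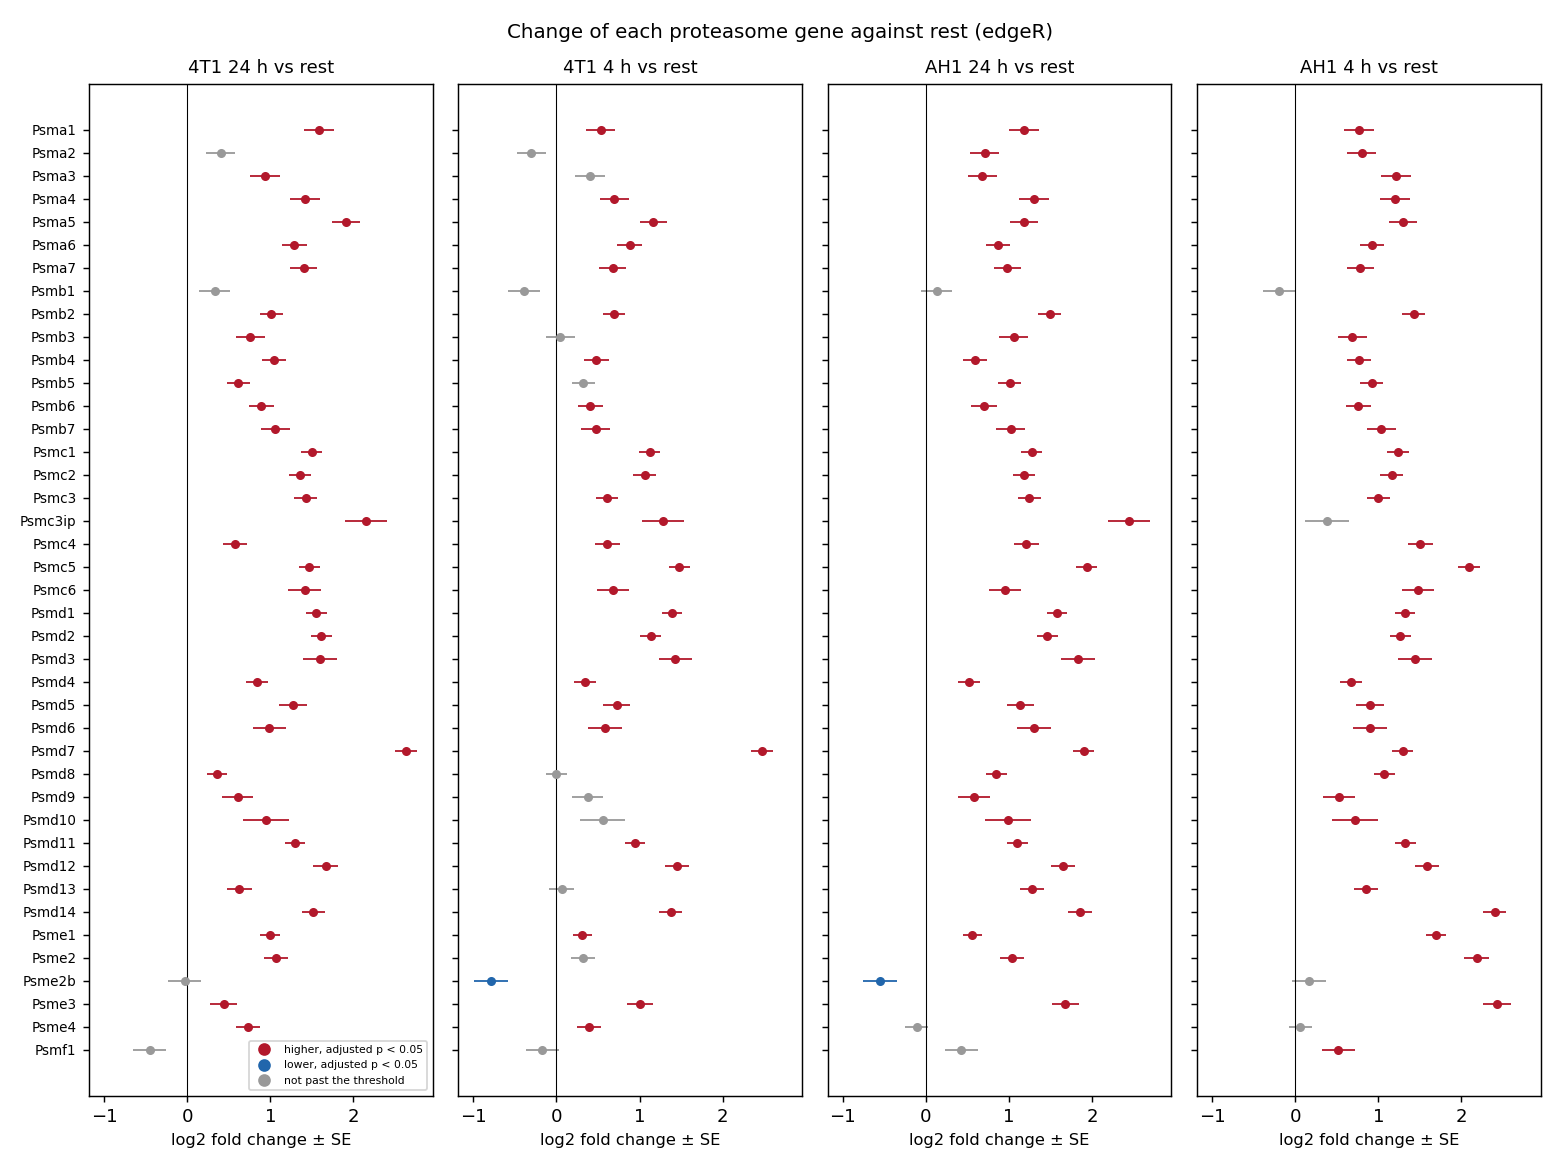
Log2 fold change against rest of each of the 41 proteasome genes (edgeR, points; bars are ± 1 SE) for co-culture with 4T1 cells at 24 h and 4 h and AH1 peptide at 24 h and 4 h. Red genes rose (37, 29, 37 and 37) and blue genes fell at an adjusted p under 0.05. With libraries set equal on T cell identity genes the last panel would hold 5 risen and 15 fallen genes, where 12.8% of the calls over all genes are rises.

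The alpha-ring genes, whose products form the outer rings and the gate, rose in part in co-culture and in full with peptide, except under other scalings at 4 h of peptide. Of the 7, 6 rose at 24 h and 5 at 4 h of co-culture, and 7 rose at 24 h and at 4 h of peptide, the last of which turned to a median of -0.41 with 3 genes lower under the T cell identity scaling and to 4 risen genes with library totals. The median changes of the 7 were 1.40, 0.68, 0.98 and 0.93. Of all genes tested, 36.0%, 34.2%, 29.2% and 28.8% rose in the same order. Psma5 had 204 and 272 CPM at 24 h and 154 and 129 CPM at 4 h of co-culture. With peptide, Psma5 had 136 and 150.2 CPM at 24 h and 168 and 142 CPM at 4 h, against 64.0 and 62.2 CPM at rest. Every activated library lay above both resting ones, the co-culture 24 h pair highest. Its change against rest was 1.92 ± 0.17 at 24 h of co-culture (adjusted p = 3.96e-07 by edgeR), 1.17 ± 0.17 at 4 h, 1.18 at 24 h of peptide and 1.30 at 4 h, the last -0.039 with the T cell identity scaling.

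Psma2 had the smallest changes of the ring in co-culture. It had 191 and 260.1 CPM at 24 h and 148 and 129.7 CPM at 4 h of co-culture. Psma2 had 257 and 302 CPM at 24 h and 333 and 262 CPM at 4 h of peptide, against 162 and 179 CPM at rest. The peptide libraries and 1 library of 24 h of co-culture were highest, and both libraries of 4 h of co-culture lay below rest. The change was 0.40 ± 0.17 at 24 h of co-culture (adjusted p = 0.0566) and -0.30 ± 0.17 at 4 h (adjusted p = 0.151), neither past the threshold in edgeR. The change at 24 h passed with library totals (0.46), with no filter on low counts (0.39), with the T cell identity scaling (2.90) and without replicate 1 of that group (0.62). The change at 4 h passed as -0.33 with only the groups compared in the fit and as 0.64 with the T cell identity scaling. With peptide it rose by 0.71 ± 0.17 and 0.80 ± 0.17 at 24 h and 4 h.

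Psma4, whose promoter is printed above, had 214 and 285 CPM at 24 h and 163 and 139 CPM at 4 h of co-culture. After peptide Psma4 stood at 201 and 258 CPM at 24 h and at 236 and 193 CPM at 4 h, against 95.2 and 91.3 CPM at rest. All activated libraries were above both at rest, and the change at 24 h of peptide was 1.30 ± 0.18. Psma1 had 297 and 419.9 CPM at 24 h and 187 and 157 CPM at 4 h of co-culture. Peptide gave 242 and 297 CPM at 24 h and 218 and 188 CPM at 4 h, against 117 and 121 CPM at rest, with the libraries of 24 h of co-culture farthest apart. Its change was smallest of the ring at 4 h of peptide, 0.77 ± 0.18, and was 0.27 and short of the threshold with library totals alone and -0.57 with the T cell identity scaling. Psma3 had 255 and 358 CPM at 24 h and 228 and 195 CPM at 4 h of co-culture. With peptide, Psma3 had 234 and 277 CPM at 24 h and 409.8 and 329.8 CPM at 4 h, against 159.8 and 159.7 CPM at rest. It was highest at 4 h of peptide and its change of 0.68 ± 0.18 at 24 h of peptide was the smallest of the ring there, and lost its call without replicate 1 of rest (0.67). Replicate 2 of co-culture at 24 h was above replicate 1 for all 7 alpha genes (median log2 ratio 0.44), as was replicate 2 of peptide at 24 h (0.23). At 4 h replicate 2 was above replicate 1 for 0 of 7 in co-culture (-0.23) and with peptide (-0.24), and at rest for 3 of 7.

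**Figure D3:**
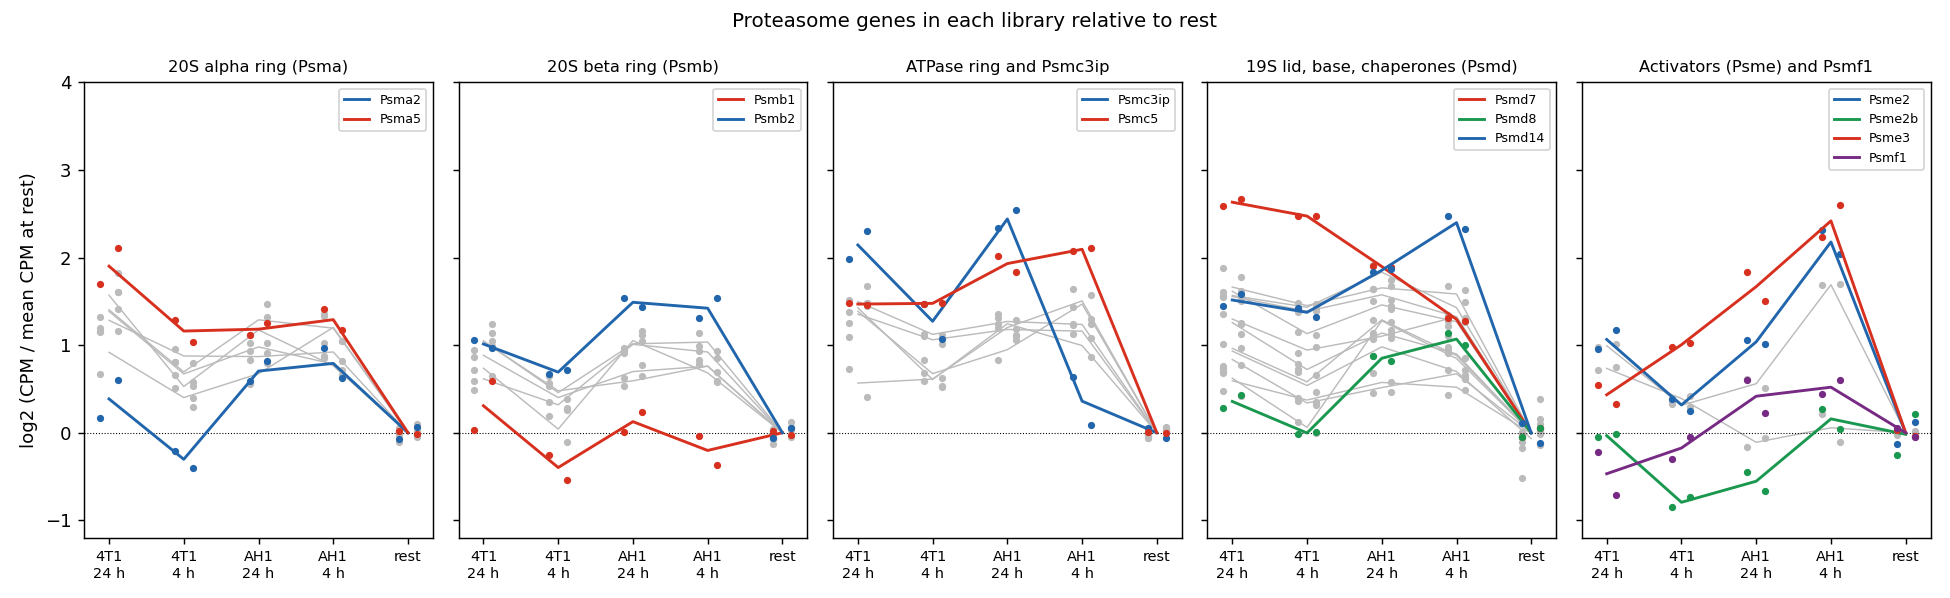
Log2 of CPM over the mean CPM at rest for every proteasome gene in each library (points, 2 per group), by subcomplex; lines join group means to follow a gene and mark no order of the groups. Coloured genes are named in the legends and grey genes are the other members: Psma5, Psmc5, Psmd7 and Psmd14 stand high in all 4 activated groups on this scaling, whereas Psmb1 stays near rest.

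The beta-ring genes, of which Psmb5, Psmb6 and Psmb7 carry the active sites, had lower median changes than the alpha genes in co-culture. Of the 7, 6 rose at 24 h and 4 at 4 h of co-culture, and 6 rose at 24 h and at 4 h of peptide (with library totals the last became 3 higher and 1 lower, with a median of 0.27, and under the T cell identity scaling 5 lower). The medians were 0.89, 0.41, 1.01 and 0.77, and in the same order 36.0%, 34.2%, 29.2% and 28.8% of all genes tested rose. Psmb5, the chymotrypsin-like subunit, had 81.9 and 85.3 CPM at 24 h and 69.8 and 66.3 CPM at 4 h of co-culture. Psmb5 had 107 and 113 CPM at 24 h and 108 and 98.9 CPM at 4 h of peptide, against 49.9 and 59.3 CPM at rest. All activated libraries lay above rest, the peptide pairs above the co-culture pairs. It rose by 0.62 ± 0.14 at 24 h of co-culture, 1.01 ± 0.14 at 24 h of peptide and 0.92 ± 0.14 at 4 h of peptide, where the T cell identity scaling gave -0.41. The change of 0.32 ± 0.14 at 4 h of co-culture did not pass (adjusted p = 0.0614 by edgeR), but passed with DESeq2 size factors (0.34), DESeq2's Wald test (0.34), library totals (0.42), the T cell identity scaling (1.26) and only the groups compared (0.29).

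Psmb6, the caspase-like subunit, had 146 and 183 CPM at 24 h and 128 and 107 CPM at 4 h of co-culture. After peptide Psmb6 stood at 137 and 151 CPM at 24 h and at 157 and 143 CPM at 4 h, against 85.6 and 91.7 CPM at rest. The resting pair was below all other libraries. It rose by 0.89 ± 0.15, 0.41 ± 0.15, 0.70 ± 0.15 and 0.76 ± 0.15 in that order of groups, the last 0.26 and not past the threshold with library totals and -0.57 with the T cell identity scaling. Psmb7, the trypsin-like subunit, had 208 and 271 CPM at 24 h and 180.4 and 138 CPM at 4 h of co-culture. Peptide gave 216 and 249.5 CPM at 24 h and 253 and 219 CPM at 4 h, against 109.6 and 120.1 CPM at rest. Its groups likewise did not overlap with rest, and it rose by 1.06 ± 0.17, 0.47 ± 0.17, 1.02 ± 0.17 and 1.04 ± 0.17, the last -0.30 with the T cell identity scaling. The calls at 4 h of co-culture were lost without replicate 1 of that group (0.29 for Psmb6 and 0.28 for Psmb7), without replicate 1 of rest (0.34 and 0.39) and without replicate 2 of rest (0.47 and 0.55).

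Psmb2, a noncatalytic beta subunit, had the largest change of the ring at 4 h of co-culture and at both times of peptide. It had 103 and 97.2 CPM at 24 h and 78.9 and 81.2 CPM at 4 h of co-culture. With peptide, Psmb2 had 144 and 134 CPM at 24 h and 123 and 144 CPM at 4 h, against 47.6 and 51.5 CPM at rest. The peptide libraries lay above the co-culture libraries and these above rest, and the changes were 1.01 ± 0.14, 0.69 ± 0.14, 1.49 ± 0.14 and 1.43 ± 0.14, all past the threshold, the last of them 0.09 and no longer past it with the T cell identity scaling. Psmb1, also noncatalytic, had the lowest change of the ring in all 4 comparisons. It lies at chr17:15475721-15498276 on the minus strand and had 279 and 411 CPM at 24 h and 229.7 and 188 CPM at 4 h of co-culture. Psmb1 had 276 and 324 CPM at 24 h and 266 and 213 CPM at 4 h of peptide, against 278 and 269 CPM at rest. Both libraries of 4 h of co-culture and of 4 h of peptide lay below rest, while the peptide 24 h pair and the co-culture 24 h pair each held 1 library near the resting level and 1 above it. The changes were 0.33, -0.39, 0.13 and -0.19, with adjusted p of 0.132, 0.0872, 0.578 and 0.395 by edgeR. Without replicate 1 of co-culture at 24 h its change there passed with 0.60, and its change at 4 h of co-culture passed with no filter on low counts (-0.40) and with only the groups compared (-0.42). With library totals the change at 4 h of peptide passed with -0.70. The T cell identity scaling gave 2.84 at 24 h and 0.55 at 4 h of co-culture, and 0.77 at 24 h and -1.53 at 4 h of peptide, all past the threshold. Psmb3, with the printed CCAAT promoter, had 177 and 249 CPM at 24 h and 144 and 117 CPM at 4 h of co-culture. After peptide Psmb3 stood at 242 and 281 CPM at 24 h and at 217 and 189 CPM at 4 h, against 129.8 and 122 CPM at rest, and its 4 h co-culture pair overlapped with rest.

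The balance of inducible and standard catalytic subunits was read as the ratio of their counts within a library, which no library scaling changes. Psmb8 over Psmb5, the chymotrypsin-like pair, had log2 count ratios of 1.55 and 1.21 at 24 h of co-culture, 1.27 and 1.12 at 4 h of co-culture, 2.20 and 1.87 at 24 h of peptide, 1.04 and 0.99 at 4 h of peptide and 2.78 and 2.68 at rest. Both resting libraries were above all activated ones. Psmb9 over the caspase-like Psmb6 had 1.02 and 0.96, 0.25 and 0.36, 1.21 and 1.16 and 0.44 and 0.53 in the activated groups in the same order and 2.12 and 2.10 at rest. Again rest was highest, and both 4 h groups were lowest.

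Psmb10 over Psmb7, the trypsin-like pair, did not follow this order. Its log2 count ratios were 0.84 and 0.71 at 24 h and 0.07 and 0.32 at 4 h of co-culture, -1.18 and -1.48 at 24 h and -2.16 and -2.12 at 4 h of peptide, and -0.05 and -0.02 at rest. Co-culture lay above rest and peptide below it. The ratios are given as a description with no test, and unequal gene lengths make only their differences between groups readable.

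**Figure D4:**
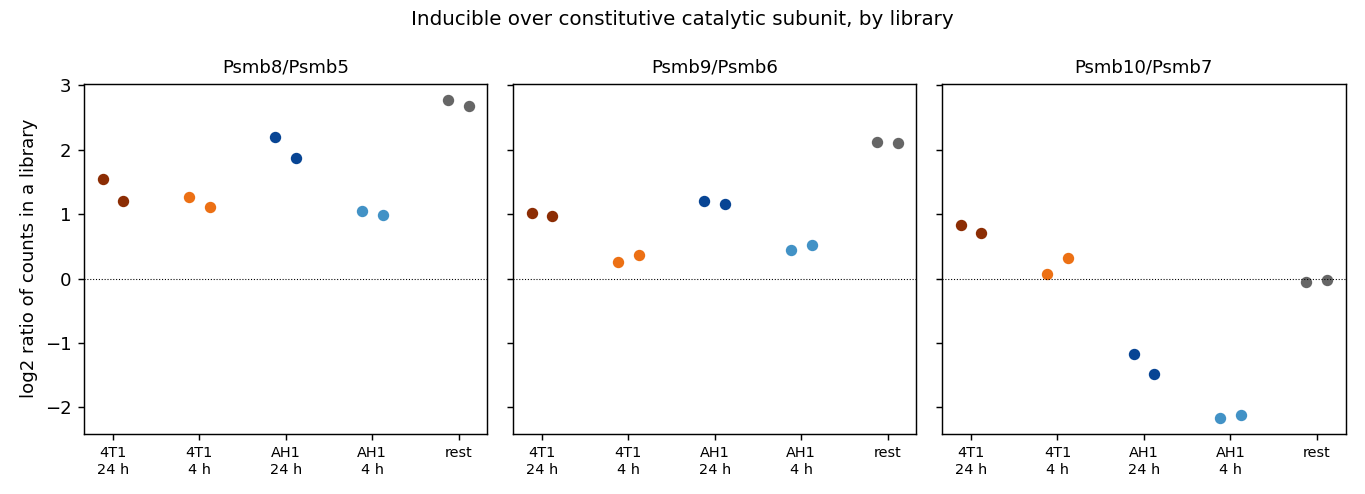
Log2 ratio of the counts of an inducible catalytic subunit over its standard counterpart in each library (points, 2 per group), a measure independent of library scaling. Resting libraries are highest for Psmb8/Psmb5 (2.68 and 2.78) and Psmb9/Psmb6 (2.10 and 2.12), and between co-culture and peptide for Psmb10/Psmb7 (-0.05 and -0.02).

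The ATPase genes rose as a group against rest, except under one scaling at 4 h of peptide. Of the 7 Psmc genes, which are 6 ATPases and Psmc3ip, 7 rose at 24 h and at 4 h of co-culture, 7 at 24 h of peptide and 6 at 4 h of peptide. The gene that did not pass at 4 h of peptide was Psmc3ip (0.38). The T cell identity scaling left 1 higher and 1 lower there, and the lower was Psmc3ip (-0.95). The medians over the 7 genes were 1.43, 1.06, 1.24 and 1.24, and in the same order 36.0%, 34.2%, 29.2% and 28.8% of all genes tested rose. Psmc5, the ATPase that changed most against rest with peptide, lies at chr11:106256154-106263120 on the plus strand and had 125 and 123 CPM at 24 h and 124 and 125 CPM at 4 h of co-culture. Peptide gave 182 and 160.3 CPM at 24 h and 189 and 193 CPM at 4 h, against 45.0 and 44.6 CPM at rest. The 4 co-culture libraries lay close together, above rest and below the 4 peptide libraries. The changes were 1.47 ± 0.13, 1.48 ± 0.13, 1.93 ± 0.13 and 2.09 ± 0.13 (adjusted p = 2.66e-08 by edgeR for the last), or 2.77-, 2.78-, 3.82- and 4.27-fold.

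Psmc4 was the ATPase with the smallest change at 24 h of co-culture, with 93.1 and 74.4 CPM at 24 h and 85.0 and 86.9 CPM at 4 h of co-culture. With peptide, Psmc4 had 139 and 120.5 CPM at 24 h and 152 and 168 CPM at 4 h, against 53.8 and 58.6 CPM at rest. It rose by 0.58 ± 0.15 at 24 h and 0.61 ± 0.15 at 4 h of co-culture, and the peptide pairs were higher still. Psmc3 had 231 and 248 CPM at 24 h and 143 and 129 CPM at 4 h of co-culture. Psmc3 had 205 and 218 CPM at 24 h and 194 and 163 CPM at 4 h of peptide, against 87.4 and 91.0 CPM at rest. Its changes were smallest at 4 h, 0.61 ± 0.13 in co-culture and 1.00 ± 0.14 with peptide (-0.34 with the T cell identity scaling). Psmc6 had 193 and 287 CPM at 24 h and 159.9 and 129 CPM at 4 h of co-culture. After peptide Psmc6 stood at 160.3 and 188 CPM at 24 h and at 280.0 and 222 CPM at 4 h, against 88.6 and 91.5 CPM at rest. It rose least of the ring at 24 h of peptide, by 0.95 ± 0.19.

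Psmc3ip, the partner of Mnd1 in meiotic strand exchange and no part of the proteasome, stood low and apart from the ATPases. It had 20.9 and 26.1 CPM at 24 h and 14.7 and 11.1 CPM at 4 h of co-culture. Peptide gave 26.7 and 30.8 CPM at 24 h and 8.18 and 5.62 CPM at 4 h, against 5.49 and 5.08 CPM at rest. The 24 h groups and co-culture at 4 h lay above rest, and the 4 h peptide pair lay just above it. It rose by 2.15 ± 0.25, 1.28 ± 0.25 and 2.44 ± 0.25 at 24 h of co-culture, 4 h of co-culture and 24 h of peptide, and the change of 0.38 ± 0.26 at 4 h of peptide did not pass (adjusted p = 0.228 by edgeR). The opposite-strand gene Mlx overlaps it, with up to 813 counts in a library against 74 or more for Psmc3ip, and the sources used here do not give the strand setting of the counting. The same holds for Psmb7 with Nek6 and Psmc3 with Slc39a13, among 14 members that overlap a gene on the opposite strand.

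The Psmd genes, which encode the scaffold and lid of the regulatory particle and 3 chaperones, included Psmd7, the member with the largest change in co-culture. All 14 rose at 24 h of co-culture and at 24 h and 4 h of peptide, and 10 rose at 4 h of co-culture. The medians were 1.29, 0.83, 1.29 and 1.17 in the order co-culture 24 h, co-culture 4 h, peptide 24 h and peptide 4 h, and the T cell identity scaling turned the last to -0.17, with 1 gene higher and 3 lower. Of all genes tested, 36.0%, 34.2%, 29.2% and 28.8% rose in that order. Psmd14, the deubiquitinase that cuts ubiquitin chains off the substrate, lies at chr2:61711694-61800376 on the plus strand and had 107 and 118 CPM at 24 h and 106 and 98.6 CPM at 4 h of co-culture. With peptide, Psmd14 had 140.4 and 144 CPM at 24 h and 218 and 197 CPM at 4 h, against 42.5 and 36.3 CPM at rest. No activated library came near rest, and the 4 h peptide pair was highest on the TMM scaling. The T cell identity scaling put Psmd14 higher in co-culture than with peptide at 4 h (1.25). It rose by 1.51 ± 0.14, 1.37 ± 0.14, 1.85 ± 0.14 and 2.40 ± 0.14 (adjusted p = 1.77e-08 by edgeR for the last), or 2.86-, 2.59-, 3.61- and 5.27-fold.

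Psmd7, the inactive partner with which Psmd14 pairs in the lid, lies at chr8:107580381-107588482 on the minus strand and was highest in co-culture. It had 203 and 214 CPM at 24 h and 186 and 187 CPM at 4 h of co-culture. Psmd7 had 126 and 125 CPM at 24 h and 83.3 and 81.7 CPM at 4 h of peptide, against 32.4 and 34.9 CPM at rest. The co-culture libraries were highest and the groups did not overlap. It rose by 2.63 ± 0.13, 2.47 ± 0.13, 1.90 ± 0.13 and 1.29 ± 0.13 (adjusted p = 2.65e-09 by edgeR for the first), the last -0.040 with the T cell identity scaling. Within a library, the log2 ratio of Psmd14 to Psmd7 counts was -0.92 and -0.86 at 24 h and -0.82 and -0.93 at 4 h of co-culture, 0.16 and 0.21 at 24 h and 1.39 and 1.27 at 4 h of peptide, and 0.39 and 0.06 at rest. The 4 co-culture libraries were below rest and the 4 h peptide pair above it.

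At the low end, Psmd8, a lid subunit, had 172 and 191 CPM at 24 h and 139.7 and 142 CPM at 4 h of co-culture. After peptide Psmd8 stood at 259.5 and 250.0 CPM at 24 h and at 311 and 282 CPM at 4 h, against 136 and 146 CPM at rest. The 4 h co-culture pair lay within the resting range. It rose by 0.36 ± 0.13 at 24 h of co-culture, a call lost without replicate 2 of that group (0.30), replicate 1 of rest (0.29) or replicate 2 of rest (0.43), with no filter on low counts (0.35) and with only the groups compared (0.32). Its change at 4 h of co-culture was -0.00 ± 0.13 (adjusted p = 0.988 by edgeR), or 0.94 with the T cell identity scaling. Psmd4, a receptor of ubiquitin chains, had 182 and 218 CPM at 24 h and 143 and 139 CPM at 4 h of co-culture. Peptide gave 152 and 167 CPM at 24 h and 183 and 173 CPM at 4 h, against 111 and 112 CPM at rest. All activated pairs were above rest, and the change of 0.52 ± 0.13 at 24 h of peptide was the smallest of the group there and lost its call without replicate 1 of rest (0.50).

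Psmd9, an assembly chaperone of the ATPase ring, had 33.7 and 26.5 CPM at 24 h and 26.1 and 25.3 CPM at 4 h of co-culture. With peptide, Psmd9 had 31.8 and 27.3 CPM at 24 h and 26.6 and 30.3 CPM at 4 h, against 17.6 and 22.0 CPM at rest. Its libraries lay above rest in each activated group by a small margin. The change at 4 h of peptide, 0.52 ± 0.19, was the smallest of the Psmd genes and lost its call without replicate 2 of that group (0.43) or replicate 1 of rest (0.37). Library totals left 0.028 of it and the T cell identity scaling gave -0.81.

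The activator genes did not move as one. Of the 5 Psme genes 4 rose at 24 h of co-culture, 3 rose and 1 fell at 4 h of co-culture and at 24 h of peptide, and 3 rose at 4 h of peptide, whereas under the T cell identity scaling 5, 4 and 4 were higher in the first 3 groups and 3 higher with 2 lower at 4 h of peptide. Of all genes tested, 36.0% rose and 29.3% fell at 24 h of co-culture, and 34.2% rose and 26.7% fell at 4 h. With peptide 29.2% rose and 26.1% fell at 24 h, and 28.8% rose and 30.7% fell at 4 h. The plot of 8 levels shows Psme1, Psme2, Psme3 and Psme4 by library. Psme1 and Psme2 encode the paired activator that interferon gamma is known to induce. Psme1 had 276 and 283 CPM at 24 h and 176 and 172 CPM at 4 h of co-culture. Psme1 had 214 and 199.6 CPM at 24 h and 451 and 455 CPM at 4 h of peptide, against 138 and 143 CPM at rest. Every activated library was above rest, and the 4 h peptide pair was far above all others on the TMM scaling. With the T cell identity scaling Psme1 was higher at 24 h than at 4 h of peptide (0.83). It rose by 0.99 ± 0.12, 0.31 ± 0.12, 0.56 ± 0.12 and 1.69 ± 0.12, or 3.23-fold at 4 h of peptide (adjusted p = 8.8e-08 by edgeR). The call at 4 h of co-culture was lost without any 1 of the 4 libraries compared (0.27 to 0.35) and with no filter on low counts (0.30).

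Psme2 lies at chr14:55587441-55591113 on the minus strand and had 334 and 391 CPM at 24 h and 226 and 205 CPM at 4 h of co-culture. After peptide Psme2 stood at 361 and 349 CPM at 24 h and at 857 and 713 CPM at 4 h, against 158 and 188 CPM at rest. Activated and resting pairs did not overlap, and the 4 h peptide pair was far above all others on the TMM scaling. With the T cell identity scaling Psme2 was higher at 24 h than at 4 h of peptide (0.81). It rose by 1.07 ± 0.15 at 24 h of co-culture, 1.04 ± 0.15 at 24 h of peptide and 2.18 ± 0.15 at 4 h of peptide, which is 4.54-fold, and its change of 0.32 ± 0.15 at 4 h of co-culture did not pass (adjusted p = 0.0757 by edgeR). That change passed with DESeq2's Wald test (0.34), library totals (0.41), the T cell identity scaling (1.26) and only the groups compared (0.29). Psme3, the nuclear activator that forms a ring of its own, lies at chr11:101316213-101323537 on the plus strand and had 142 and 121 CPM at 24 h and 192 and 197 CPM at 4 h of co-culture. Peptide gave 345 and 275 CPM at 24 h and 458 and 588 CPM at 4 h, against 99.4 and 94.8 CPM at rest. Its groups kept apart, with peptide above co-culture and co-culture above rest on the TMM scaling. The T cell identity scaling put Psme3 higher in co-culture than with peptide (0.64 at 24 h and 0.85 at 4 h). It rose by 0.44 ± 0.16, 1.00 ± 0.16, 1.68 ± 0.16 and 2.43 ± 0.17, the last 5.39-fold. The call at 24 h of co-culture was lost without replicate 1 of that group (0.34), replicate 1 of rest (0.46) or replicate 2 of rest (0.42), and with only the groups compared (0.39).

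Psme4, a large nuclear activator known from the breakdown of acetylated histones, had 135 and 138 CPM at 24 h and 105 and 109.9 CPM at 4 h of co-culture. With peptide, Psme4 had 73.4 and 78.8 CPM at 24 h and 95.5 and 76.3 CPM at 4 h, against 84.6 and 79.6 CPM at rest. Only the co-culture libraries were all above rest. It rose by 0.73 ± 0.14 at 24 h and 0.39 ± 0.14 at 4 h of co-culture, the second of which lost its call without any 1 of the 4 libraries (0.36 to 0.44) and with no filter on low counts (0.38). With peptide its changes were -0.11 ± 0.14 and 0.06 ± 0.14 at 24 h and 4 h (adjusted p = 0.535 and 0.725 by edgeR), and the T cell identity scaling reversed both, to 0.52 and -1.27, as library totals did the second (-0.44), all past the threshold.

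Psme2b, a gene named as a copy of Psme2, had 22.7 and 23.3 CPM at 24 h and 13.0 and 14.1 CPM at 4 h of co-culture. Psme2b had 17.3 and 14.9 CPM at 24 h and 28.5 and 24.2 CPM at 4 h of peptide, against 19.8 and 27.3 CPM at rest. It is uncertain, since reads shared with Psme2 may be split between them and it lies within 2 genes of the same strand, Gm12185 and 9930111J21Rik1, with up to 2458 and 777 counts. Libraries of 4 h of co-culture and 24 h of peptide were below rest. It fell by 0.79 and 0.55 on the log2 scale there (SE 0.20 for both, adjusted p = 0.0045 and 0.0352 by edgeR), and the T cell identity scaling turned both, to 0.14 and 0.066. The first call was lost without replicate 1 of co-culture at 4 h (-0.71) or replicate 2 of rest (-0.53), and the second without replicate 1 (-0.66) or 2 (-0.43) of peptide at 24 h or replicate 2 of rest (-0.29) and with library totals (-0.48). Its changes at 24 h of co-culture and 4 h of peptide were -0.03 and 0.16 (adjusted p = 0.907 and 0.507 by edgeR).

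Psmf1, which encodes an inhibitor of the core particle, had 28.4 and 20.2 CPM at 24 h and 27.0 and 31.9 CPM at 4 h of co-culture. After peptide Psmf1 stood at 50.5 and 38.8 CPM at 24 h and at 45.0 and 50.2 CPM at 4 h, against 34.3 and 32.0 CPM at rest. Co-culture libraries lay below rest, where the T cell identity scaling put them above it (2.04 at 24 h and 0.77 at 4 h), and peptide libraries lay above it. It rose by 0.52 ± 0.20 at 4 h of peptide, a call lost without replicate 2 of that group (0.44), without replicate 1 (0.58) or 2 (0.47) of rest, reduced to 0.023 with library totals, and reversed to -0.81 by the T cell identity scaling. The other changes, -0.45 and -0.17 at 24 h and 4 h of co-culture and 0.43 at 24 h of peptide, did not pass (adjusted p = 0.0632, 0.479 and 0.0812 by edgeR). Without replicate 1 of co-culture at 24 h it fell there (-0.70), as it did with no filter on low counts (-0.46) and with only the groups compared (-0.50). At 24 h of peptide it rose without replicate 2 of that group (0.62), with only the groups compared (0.41) and with the T cell identity scaling (1.04).

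**Figure D5:**
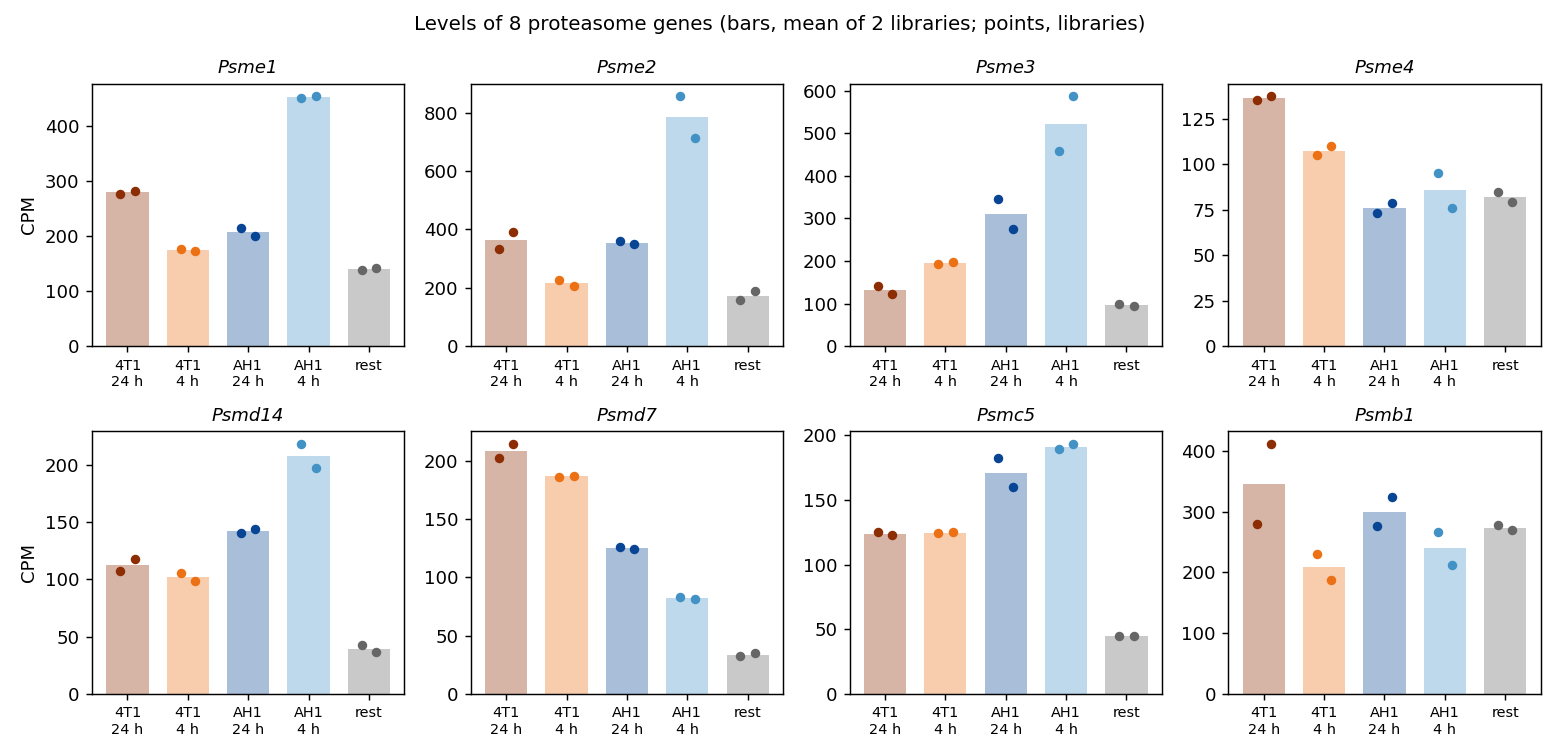
CPM of 8 proteasome genes in each library (points) with the mean of 2 libraries per group (bars). On the TMM scaling Psme1, Psme2, Psme3, Psmd14 and Psmc5 are highest at 4 h of peptide. Psmd7 and Psme4 are highest in co-culture, and Psmb1 overlaps between activated groups and rest. With libraries set equal on T cell identity genes, all 41 genes are higher at 24 h than at 4 h of peptide (Psme1 0.83, Psme2 0.81, Psme3 1.19). Psmd14 is then higher in co-culture than with peptide at 4 h (1.25), and Psmd7 at 4 h of peptide would lie at -0.040 on the log2 scale relative to rest.

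Levels of different genes were compared per kilobase of the deposited gene length. At rest the alpha genes ran between 50.9 (Psma5) and 181 (Psma2) CPM per kb, a span of 3.55-fold, and at 24 h of co-culture between 108 (Psma3) and 298 (Psma1), a span of 2.77-fold. The beta genes ran between 57.7 (Psmb2) and 264 (Psmb1) CPM per kb at rest, a span of 4.58-fold, and between 119 (Psmb5) and 231 (Psmb1) at 4 h of peptide, a span of 1.95-fold. Psmb1 was the highest beta gene per kb in each of the 5 groups. The 6 ATPases ran between 18.8 (Psmc2) and 57.6 (Psmc6) CPM per kb at rest, and the 11 Psmd subunits between 20.0 (Psmd3) and 91.8 (Psmd8). Coordinates given here are the deposited ones on mm10. Each gene has a single deposited length, so these levels depend on which transcripts are made.

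Between co-culture and peptide at 4 h, most called proteasome genes were lower in co-culture. In co-culture 2 of 41 were higher and 21 lower than with peptide, where 35.1% and 26.3% of all genes were, with a median change of -0.35. All 41 were higher in co-culture with the T cell identity scaling, and 13 higher and 6 lower with library totals, but relative to the median of all genes the difference was -0.51 to -0.49 under the 4 scalings. The 2 higher genes were Psmd7 (1.18 ± 0.12) and Psmc3ip (0.89 ± 0.25), the second of which lost its call without replicate 1 of co-culture (0.71) or replicate 2 of peptide (0.62). Among the lower were Psme2 (-1.87 ± 0.15), Psme3 (-1.42 ± 0.16), Psma2 (-1.10 ± 0.18) and Psmd14 (-1.03 ± 0.14), which the T cell identity scaling turned to 0.41, 0.85, 1.18 and 1.25.

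At 24 h the difference between co-culture and peptide was divided. In co-culture 8 of 41 genes were higher and 9 lower than with peptide (28.6% and 24.0% of all genes), with a median of 0.12. The higher count was 4 without replicate 2 of co-culture, 4 without replicate 1 of peptide and 5 without replicate 2 of peptide, and the lower count was 4 without replicate 1 of peptide. Among the higher were Psme4 (0.84 ± 0.14) and Psmd7 (0.73 ± 0.12), and among the lower Psme3 (-1.24 ± 0.16) and Psmf1 (-0.88 ± 0.20), which the T cell identity scaling turned to 0.64 and 1.00. Psmd7 was higher in co-culture at both times under each of the scalings tried. The epithelial markers given above were present in co-culture and near 0 with peptide in both comparisons, and their part in these differences was not tested.

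Over time with peptide, few proteasome genes changed. Between 24 h and 4 h, 3 of 41 were higher and 7 lower at 24 h (28.2% and 24.6% of all genes), with a median of 0.02. The T cell identity scaling made 41 higher and library totals 32 higher and 2 lower, while the median relative to all genes stayed between -0.06 and -0.01. The genes lower at 24 h included Psme1 (-1.13 ± 0.12), Psme2 (-1.15 ± 0.15) and Psme3 (-0.75 ± 0.16), which the T cell identity scaling turned to 0.83, 0.81 and 1.19. With library totals the change of Psme3 was -0.19 and did not pass. Psmc3ip (2.06 ± 0.25) and Psmd7 (0.60 ± 0.12) were higher at 24 h.

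Over time in co-culture, 20 of 41 genes were higher and 1 lower at 24 h than at 4 h, where 8.50% and 8.02% of all genes were, with a median of 0.48. The higher count rested on single libraries: it was 4 without replicate 2 of co-culture at 24 h, 11 without replicate 1 and 3 without replicate 2 of co-culture at 4 h. Psma1 changed most (1.06 ± 0.18), and 5 of 7 Psma and 5 of 7 Psmb genes were higher. Psme2 was higher by 0.75 ± 0.15, a call lost without replicate 2 at 4 h (0.68). The lower gene was Psme3 (-0.57 ± 0.16), which lost its call without replicate 2 at 24 h (-0.46) and without replicate 1 (-0.59) or 2 (-0.54) at 4 h and which the T cell identity scaling turned to 0.98. The T cell identity sum was lower at 24 h than at 4 h of co-culture, and its part was not tested.

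The change between 24 h and 4 h differed between co-culture and peptide for 14 of the 41 genes. For 13 the difference was positive (15.8% of all genes) and for Psmc3ip it was negative (20.2% of all genes), with a median of 0.40, which library totals turned to -0.21 and the T cell identity scaling to -0.01. Relative to the median of all genes it was 0.47 to 0.50 under the 4 scalings, again a value that scaling hardly moves by construction. The count of positive differences was 20 without replicate 1 of co-culture at 24 h, 5 without replicate 2 of co-culture at 4 h, and 8 without replicate 1 of peptide at 24 h or at 4 h. The negative call of Psmc3ip was lost without replicate 1 of co-culture at 4 h (-0.98) or replicate 2 of peptide at 4 h (-0.92). The largest were those of Psme2 (1.90 ± 0.21), Psme1 (1.81 ± 0.17) and Psme2b (1.47 ± 0.29), with adjusted p of 1.77e-05, 4.41e-06 and 0.00146 by edgeR. On the TMM scaling, the levels of Psme1 and Psme2 were lower at 24 h than at 4 h with peptide and higher at 24 h than at 4 h in co-culture. With the T cell identity scaling both were higher at 24 h with peptide as well (0.83 and 0.81).

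Other genes of the pathway moved in parts. Of all genes tested 36.0%, 34.2%, 29.2% and 28.8% rose and 29.3%, 26.7%, 26.1% and 30.7% fell at 24 h of co-culture, 4 h of co-culture, 24 h of peptide and 4 h of peptide. Of the inducible catalytic subunits Psmb8, Psmb9 and Psmb10, which were no members, 1 rose and 1 fell at 24 h of co-culture, 1 rose and 2 fell at 4 h of co-culture, 3 fell at 4 h of peptide, and the 3 did not pass at 24 h of peptide. Psmb10 had 372 and 443 CPM at 24 h and 189 and 172 CPM at 4 h of co-culture. Peptide gave 95.5 and 89.5 CPM at 24 h and 56.5 and 50.3 CPM at 4 h, against 106 and 118 CPM at rest. Only the co-culture libraries were above rest. Of 2 subunits outside the name pattern, the ubiquitin receptor Adrm1 rose in each of the 4 comparisons and Sem1 passed in no comparison. Adrm1 had 119.9 and 97.2 CPM at 24 h and 126 and 122 CPM at 4 h of co-culture. With peptide, Adrm1 had 135 and 119 CPM at 24 h and 109 and 134 CPM at 4 h, against 71.6 and 82.3 CPM at rest, and its resting pair was lowest.

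Of 6 assembly factors found, 4 rose at 24 h and 3 at 4 h of co-culture, and 4 rose at 24 h and 5 at 4 h of peptide, where 36.0%, 34.2%, 29.2% and 28.8% of all genes rose. Pomp, the chaperone that matures the core particle, had 184 and 252 CPM at 24 h and 157 and 125 CPM at 4 h of co-culture. Pomp had 212 and 216 CPM at 24 h and 155 and 129.9 CPM at 4 h of peptide, against 69.6 and 75.8 CPM at rest. Psmg1, of the chaperone pair that builds the alpha ring, had 23.9 and 23.2 CPM at 24 h and 20.2 and 15.5 CPM at 4 h of co-culture. After peptide Psmg1 stood at 23.4 and 23.7 CPM at 24 h and at 6.71 and 9.13 CPM at 4 h, against 3.02 and 4.05 CPM at rest. All activated libraries of both genes were above rest. Of 13 deubiquitinases, shuttles and cofactors, 11 rose and 1 fell at each time of co-culture, and 9 rose and 1 fell at each time of peptide, against the same shares of all genes. Usp14, a deubiquitinase that rides on the regulatory particle, had 114 and 129.7 CPM at 24 h and 107 and 104 CPM at 4 h of co-culture. Peptide gave 96.3 and 94.1 CPM at 24 h and 94.7 and 92.1 CPM at 4 h, against 45.0 and 35.9 CPM at rest. Uchl5, another, had 58.6 and 62.6 CPM at 24 h and 37.5 and 39.5 CPM at 4 h of co-culture. With peptide, Uchl5 had 167 and 153 CPM at 24 h and 58.2 and 63.7 CPM at 4 h, against 27.3 and 35.5 CPM at rest. Uchl5 was highest at 24 h of peptide, apart from all other libraries.

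Of 8 ubiquitin and Vcp complex genes, 3 rose and 1 fell at each time of co-culture, 3 rose and 2 fell at 24 h of peptide, and 5 rose and 1 fell at 4 h of peptide. The risen shares were near those of all genes at 24 h (36.0%) and 4 h (34.2%) of co-culture, and the risen and fallen shares near those at 24 h of peptide (29.2% and 26.1%). Vcp, the ATPase that unfolds substrates ahead of the proteasome, had 416 and 359 CPM at 24 h and 330.1 and 372 CPM at 4 h of co-culture. Vcp had 475 and 432 CPM at 24 h and 488 and 477 CPM at 4 h of peptide, against 172 and 159 CPM at rest. Ubb, a polyubiquitin gene, had 612 and 510.3 CPM at 24 h and 566 and 559.6 CPM at 4 h of co-culture. After peptide Ubb stood at 819.9 and 687 CPM at 24 h and at 573 and 589 CPM at 4 h, against 1087 and 1144 CPM at rest. Vcp was above rest in all activated libraries and Ubb below it.

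Among 10 transcription and processing factors, 5 rose and 3 fell at 24 h of co-culture, 5 rose and 1 fell at 4 h of co-culture, 3 rose and 3 fell at 24 h of peptide, and 7 rose and 1 fell at 4 h of peptide (28.8% and 30.7% of all genes). The shares at 24 h of peptide were near those of all genes, 29.2% and 26.1%, and those at 24 h of co-culture stand beside 36.0% and 29.3%. Nfe2l1, the factor known to drive proteasome genes when the protease is short, had 425 and 344 CPM at 24 h and 309.9 and 351 CPM at 4 h of co-culture. Peptide gave 128 and 123 CPM at 24 h and 221 and 256 CPM at 4 h, against 68.2 and 64.1 CPM at rest. All activated libraries were above rest, the co-culture ones most. Ngly1, the enzyme that strips sugars from that factor, had 20.4 and 24.3 CPM at 24 h and 20.1 and 18.1 CPM at 4 h of co-culture. With peptide, Ngly1 had 35.1 and 39.8 CPM at 24 h and 18.9 and 15.6 CPM at 4 h, against 53.2 and 56.2 CPM at rest, with every activated library below rest. Nfe2l2, its relative in the oxidative stress response, had 50.8 and 50.1 CPM at 24 h and 47.6 and 49.9 CPM at 4 h of co-culture. Nfe2l2 had 5.17 and 6.18 CPM at 24 h and 17.2 and 16.3 CPM at 4 h of peptide, against 4.54 and 5.56 CPM at rest. Of 10 targets of Nfe2l2 outside the proteasome, 9 rose and 1 fell at 24 h of co-culture, 8 rose at 4 h of co-culture, 6 rose and 1 fell at 24 h of peptide, and 5 rose and 1 fell at 4 h of peptide. The calls of these lists are those of the TMM scaling alone.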

How the data were processed

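RNA-seq counts per gene from 10 libraries were analysed as the authors deposited them, as whole numbers. Per the submitters' processing notes the build was mm10 and DESeq2 1.36 was used. The sources used here do not give the aligner, counter or strand setting, and libraries were poly(A)-selected and stranded per the labels' protocols. Counts were filtered with edgeR's filterByExpr, which kept 14729 of 35275 genes, scaled by TMM and fitted with all 5 groups in 1 quasi-likelihood model (edgeR 4.0.16, limma 3.58.1, R 4.3.3), from which 9 comparisons were taken. P-values were adjusted over all genes tested. The tests were checked on simulated data for a single comparison, 4 h of peptide against rest, with 200 changed genes and a common dispersion. With so few changed genes the check does not bear on the choice of scaling. Libraries held 14104658 to 22910633 counts, and the common biological coefficient of variation was 0.159.

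The genes and lists were chosen with earlier results of these data known. Genes named with full values were the highest and lowest of each subcomplex in each comparison with rest and the catalytic subunits Psmb5, Psmb6 and Psmb7. All Psme genes, Psmf1 and genes called against their subcomplex were also named so. List genes given as CPM only and Psmb3 were chosen after their values were seen. Of 101 list symbols 2 were not found. Alternatives were DESeq2 size factors and Wald test (DESeq2 1.42.0), library totals, scaling on T cell identity genes, no low-count filter, fits with only the groups compared, a replicate block and leaving out each library. Promoters came from RefSeq (GRCm38.p6), and figures were drawn with matplotlib 3.10.9.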

Additional observations from a re-analysis of the deposited data

Results flagged for a closer look

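For 14 of the 41 proteasome genes, the change between 24 h and 4 h differed between co-culture and peptide by the test of the difference itself (adjusted p under 0.05 in edgeR). The value given is the log2 change between 24 h and 4 h in co-culture minus that with peptide. It was largest for the activators, at 1.90 for Psme2, 1.81 for Psme1 and 1.47 for Psme2b, whose own reads are uncertain. Among the alpha-ring genes it was 1.07 for Psma3, 0.86 for Psma5 and 0.80 for Psma2, and the beta-ring gene Psmb4 had 0.74. Of the ATPase genes, Psmc6 had 1.26 and Psmc3 0.57, while Psmc3ip, the recombination factor, had -1.19. The lid and scaffold genes Psmd14, Psmd4, Psmd8 and Psmd11 had 0.69, 0.66, 0.58 and 0.58. The differences of Psma3, Psmc6, Psme1, Psme2 and Psme2b passed in each fit that left out 1 library, and the other 9 did not pass in at least 1 of them. With library totals and with the T cell identity scaling Psma3 (0.45 and 0.65) and Psmc6 (0.65 and 0.85) lost their calls, and so did Psma2, Psma5, Psmb4, Psmc3, Psmd4, Psmd8, Psmd11 and Psmd14, while Psmc3ip, Psme1, Psme2 and Psme2b kept theirs. At the same times the T cell identity sum was lower at 24 h than at 4 h in both settings and epithelial RNA was present in co-culture, and the part of either was not tested.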

How the results depend on the processing

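Of 1197 recomputed values of 105 gene results, 1034 kept their side of the threshold, among them any whose sign turned without a call in either fit. Another 101 lost and 27 gained the call, and 35 changed sign with a call in at least 1 of the fits compared. Of the sign changes, 31 came from setting libraries equal on T cell identity genes, which then gave, at 4 h of peptide against rest, Psma5 -0.039, Psma1 -0.57, Psmb5 -0.41, Psmb6 -0.57, Psmb7 -0.30, Psmc3 -0.34, Psmc3ip -0.95, Psmd9 -0.81, Psmd7 -0.040, Psme4 -1.27, Psme2b -1.17 and Psmf1 -0.81. At 24 h of peptide it gave Psme4 0.52 and Psme2b 0.066, at 4 h of co-culture Psma2 0.64, Psmb1 0.55, Psmd8 0.94, Psme2b 0.14 and Psmf1 0.77, and at 24 h of co-culture Psme2b 2.46 and Psmf1 2.04. Between co-culture and peptide it gave Psmd14 1.25, Psma2 1.18, Psme2 0.41 and Psme3 0.85 at 4 h, and Psme3 0.64 and Psmf1 1.00 at 24 h. Between 24 h and 4 h it gave Psme1 0.83, Psme2 0.81 and Psme3 1.19 with peptide and Psme3 0.98 in co-culture. Library totals reversed Psme4 at 4 h of peptide (-0.44) and the differences over time of Psmc3 (-0.032), Psmd11 (-0.022) and Psmd8 (-0.020).

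With T cell identity scaling, 5 genes were higher and 15 lower at 4 h of peptide, 0 lower at 24 h of peptide and at 4 h of co-culture by edgeR, and 41 higher and 0 lower by edgeR in each comparison of co-culture with peptide and of 24 h with 4 h, with 3 positive and 2 negative differences over time. With library totals, 2 were lower at 4 h and 0 at 24 h of peptide, 13 higher and 6 lower in co-culture than with peptide at 4 h, 32 higher and 2 lower at 24 h than at 4 h of peptide, and 3 differences over time were positive and 4 negative. With no filter on low counts, 2 were lower at 4 h and 1 at 24 h of co-culture, and 7 higher at 24 h than at 4 h of peptide. With only the groups compared in the fit, 3 were lower at 4 h and 1 at 24 h of co-culture and 3 higher in co-culture than with peptide at 24 h, and the difference over time could not be fitted. DESeq2's Wald test gave 21 positive and 2 negative differences over time. These causes were not tested.

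With 1 library left out in turn, 33–37 genes were higher and 0–1 lower at 24 h of co-culture, 20–26 higher and 0–1 lower at 4 h of co-culture, 31–38 higher and 0–1 lower at 24 h of peptide and 34–36 higher at 4 h of peptide. Between co-culture and peptide 1–3 were higher and 14–21 lower at 4 h, and 4–12 higher and 4–10 lower at 24 h. Between 24 h and 4 h, 2–3 were higher and 5–7 lower with peptide, and 3–24 higher and 0–1 lower in co-culture, and 5–20 differences over time were positive and 0–1 negative. A group left with 1 library is assumed to vary like the others.

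The correlation of same-numbered deviations over all genes was -0.161 to 0.081 over 10 pairs of groups. With a single difference per group this cannot tell whether libraries were paired. The alpha genes shifted alike between replicates in both 24 h groups and in both 4 h groups, as given above. With a replicate block, calls over all genes were 9263 in place of 9617 at 24 h and 8590 in place of 8965 at 4 h of co-culture, 7737 in place of 8139 at 24 h and 8427 in place of 8762 at 4 h of peptide, and 1974 in place of 2433 over time in co-culture, and 0 members were lower at 24 h of peptide. Psme2b at 24 h of peptide, Psmb6 and Psme1 at 4 h of co-culture and the difference over time of Psmc3 lost their calls under the block.

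With 2 libraries a group and 5 residual degrees of freedom, a change that did not pass was not detectable at this replication, and the members with the lowest counts, Psmc3ip, Psme2b, Psmd9 and Psmf1, are the least precise. Epithelial RNA in co-culture and B cell RNA with peptide cannot be told apart from changes in the CTLs for genes that all these cells express.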
